A study of Mus musculus with 6 samples.

Results

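The transcripts of lean white fat, and the transcripts that differed most between 3 lean fat samples, were described from the channels of a two-colour array table that hold ob/+ RNA. Mice of the ob/+ genotype carry the obese mutation of the leptin gene on 1 chromosome and served as the lean controls of obese ob/ob mice. All tissue described here was labelled eWAT and came from ob/+ mice on the C57BLKS/J background at 9 weeks of age. The table held 39507 reporters, the array's probes, read on 6 arrays. On each array 1 sample carried Cy5 and the ob/+ pool, for which the table's header gives n = 3, carried Cy3, with no dye swap. The pool was read on all 6 arrays, and 3 of the 6 arrays carried an ob/+ sample. These are called lean samples 1, 3 and 4 after their numbers in the table, which calls them wt. The 3 ob/ob samples on the other arrays were not compared here.

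Genes were ranked by the mean intensity of the pool, with the brightest reporter standing for a gene. Of 25800 genes with a symbol, the 50 brightest are described as the most abundant transcripts. Of the 16269 genes that had a mean pool intensity above 0.1 and a ratio on all 3 lean arrays, the 50 with the largest SD of log2 sample over pool are described as the most variable. Ranking by that SD fixes that these genes vary, so the SDs are given as a description with no test. Intensity also depends on the probe and not only on the amount of RNA, so a rank compares reporters and is not a level per length. Readings of the lean samples are intensities not divided by the pool, so they also hold differences between arrays. The labels do not say that each sample came from its own animal, and the spread between samples may therefore be technical.

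White fat stores energy as triglyceride in the droplet of the adipocyte and releases it as fatty acids by lipolysis. The tissue also secretes hormones and complement proteins, and it holds vessels, matrix-forming fibroblasts and resident macrophages. The fat pad at the mouse testis lies against the epididymis, a duct whose epithelium secretes proteins onto sperm, and against the vas deferens. The sources used here do not spell out the label eWAT.

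The 50 brightest genes included enzymes of adipocyte metabolism, secreted proteins and 7 proteins of the cytosolic ribosome, at pool intensities of 42.5 to 66.2 in the authors' units against a median of 0.187 over all genes. Gsn, which encodes the actin-severing protein gelsolin, had a single value, 66.2, from the array with the highest pool reading. Aoc3, an amine oxidase of the adipocyte surface, read 45.1 and 67.4 on its 2 channels. Cfd, which encodes the complement protease adipsin, averaged 54.8 ± 3.3 (SD over 3 channels). These SDs are technical, since 1 RNA was read repeatedly. Pnpla2, the lipase that takes the first fatty acid off a stored triglyceride, averaged 53.6 ± 11.6 over 3 channels. Pck1, the cytosolic phosphoenolpyruvate carboxykinase that supplies glycerol for triglyceride in fat, averaged 52.4 ± 11.1. Retnla, a secreted protein made by alternatively activated macrophages, averaged 52.3 ± 3.2. Apart from Gsn, which was read only on the array with the highest pool reading, the ranges of the channel readings overlapped. The order of these genes is therefore not resolved.

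The top of the scale was read incompletely. Of the 50 brightest genes 0 had a value on all 6 pool channels, 17 had a value on only 1, and 24 had no value in any lean sample. The highest pool reading differed between arrays from 43.1 to 67.4. The array that reached 67.4 read Pnpla2 at 66.9, while the other channels with a value read 45.4 and 48.5. A mean and its rank thus depend on which channels gave a value. Among the lean samples the highest reading was 50.1 in sample 1, 43.7 in sample 3 and 38.0 in sample 4. Reporters of 1 gene also differed. Car3, carbonic anhydrase 3 of adipocytes, averaged 52.8 on the 3 channels that gave a value for its brightest reporter, while its other reporter averaged 16.1 on all 6.

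**Figure D1:**
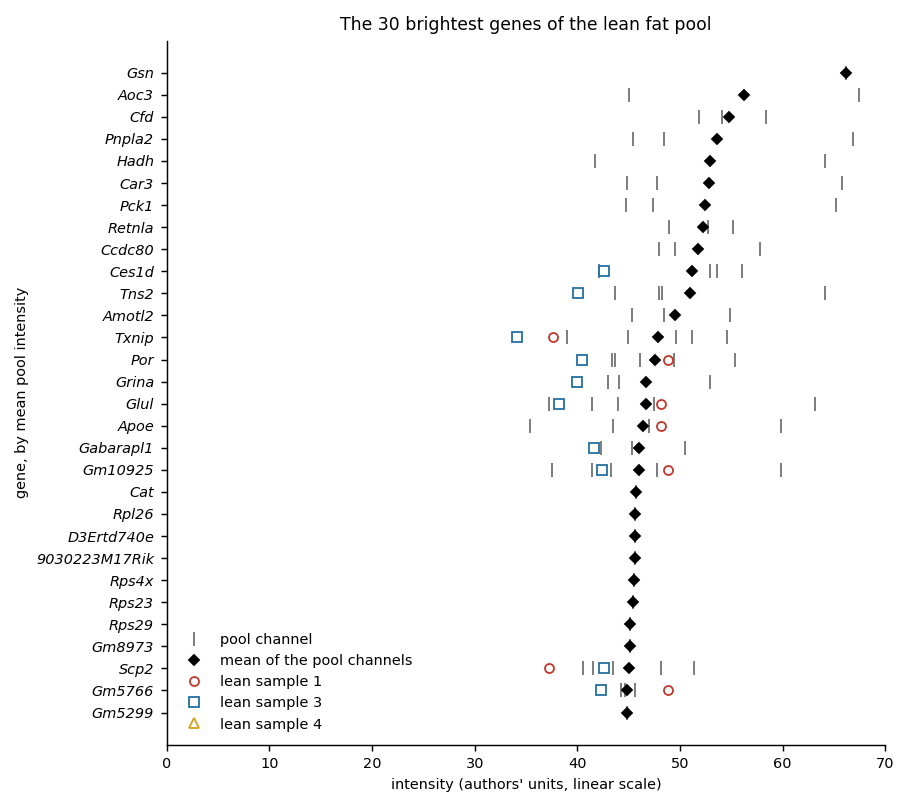
Intensity (x axis, authors' units, linear scale) of the 30 brightest genes (y axis, ordered by mean pool intensity), with a tick for each pool channel, a diamond for the pool mean and an open symbol for each lean sample that had a value. Genes such as Gsn have a single tick, and lean sample 4 has no symbol because none of these 30 genes had a value there.

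Where the lean samples were read, 1 or 2 of the 3 gave a value. Ces1d, a carboxylesterase that hydrolyses triglyceride, had only 1 lean reading, 42.6 in sample 3. Txnip, an inhibitor of thioredoxin and of glucose uptake, read 37.6 in sample 1 and 34.1 in sample 3. Por, the electron donor of microsomal cytochromes P450, read 48.8 in sample 1 and 40.4 in sample 3. None of the 30 brightest genes was read in lean sample 4. Others of the 30 were Hadh of mitochondrial fatty acid oxidation, Glul, which makes glutamine, Apoe, the lipoprotein of lipid transport, and Cat, which breaks down hydrogen peroxide. Their pool means ran from 45.8 for Cat to 52.9 for Hadh. The ribosomal genes Rpl26, Rps4x, Rps23 and Rps29 had 1 pool value each.

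The 30 brightest genes with a complete set of values had SDs of the log2 ratio over the 3 lean samples of 0.002 to 0.393, with a median of 0.177. The genes named here were picked after their values were seen. Fah, the last enzyme of tyrosine breakdown, had a pool mean of 41.9 ± 4.9 (SD, 6 channels) and read 38.6, 40.1 and 37.7 in lean samples 1, 3 and 4. C1s1, a protease of the classical complement pathway, read 36.6, 41.7 and 37.9. Slc2a4, the insulin-responsive glucose transporter, read 35.1, 32.6 and 37.5. These genes were among the steadier ones, but in lean sample 4 each read close to that array's highest reading of 38. Whether the top of the scale limits these SDs was not tested. Rpl31, of the large ribosomal subunit, had the largest SD of the 30 and read 46.7, 39.9 and 31.5. Timp3, an inhibitor of matrix metalloproteases, read 40.9, 28.8 and 36.4, where the pool ran from 33.2 to 37.6. All 3 lean readings lay within the range of the 6 pool readings for 10 of the 30 genes.

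By gene list, the share of members among the 5% brightest of all genes, those above an intensity of 6.98, was largest for matrix and ribosomal genes. By construction the background is 5% (1290 of 25800 genes). It was 15 of 22 measured genes for collagen and matrix, 40 of 60 for cytosolic ribosomal proteins, 8 of 14 for adipocyte markers and 23 of 42 for the respiratory chain. Median pool intensities were 16.2, 16.8, 10.6 and 8.56 for these lists, beside 0.187 for all genes. Among lipid genes, 9 of 25 of fatty acid and triglyceride synthesis and 4 of 11 of the lipid droplet and lipolysis reached the top 5%. Immune cell lists differed. The T and NK cell list had a median of 0.124 and the B cell and plasma cell list 0.206, near that of all genes. The median of the macrophage list was 1.88. The top 5% held 0 of 16 T and NK cell genes and 0 of 12 B cell and plasma cell genes. At a background of 5% this is no result about lists of their size. It held 5 of 20 macrophage genes.

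Adipocyte markers were bright, as the tissue label implies, but Lep and Lipe were dim. Adipoq, which encodes adiponectin, had a pool mean of 29.3 ± 2.1 (SD, 6 channels) and read 28.2, 30.4 and 27.0 in lean samples 1, 3 and 4. Lep, which encodes leptin and carries the obese mutation, had a pool mean of 0.103 and read 0.10, 0.11 and 0.11. Lipe, the hormone-sensitive lipase, had a pool mean of 0.24. Leptin was read just above the intensity filter of 0.1. The thermogenic marker Ucp1 of brown fat read 0.05 in the pool, and Ppargc1a, the brightest gene of that list, read 1.20. Y-linked genes were read in all samples. Ddx3y read 6.51, 6.42 and 7.49 in lean samples 1, 3 and 4, and Eif2s3y read 3.86, 4.37 and 4.68. Kdm5d had a pool mean of 0.33 and Uty of 0.03. Xist, the RNA of the inactive X chromosome, had a pool mean of 0.02, near the 0.01 step in which the intensities are given.

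The spread between the 3 lean samples was wide for a small share of genes. Over 16269 genes the median SD of the log2 ratio was 0.111, and 362 genes (2.23%) had an SD above 0.5, of which 93 exceeded 1. On the scale of log2 intensity over the same 3 arrays, the median SD was 0.176 for the sample channel and 0.077 for the pool. Over all 6 arrays it was 0.099 for the pool. The sample channel thus differed more between arrays than the repeated pool did. With the samples always in Cy5 and the pool in Cy3, sample and dye cannot be told apart here. Among the 50 most variable genes the SD of the log2 ratio ran from 1.56 to 3.90, while the SD of their log2 pool intensity over 6 arrays ran from 0.035 to 0.193. By range of pool intensity, the share of genes with an SD above 0.5 was lowest at 5 to 10 (1.27%) and highest at 10 to 20 (2.91%). It was 2.02% at 0.1 to 0.2 and 1.76% at 20 to 100, with no steady trend. Pearson's r of the log2 ratios, taken over reporters that are no replicates of each other and share a pool, was -0.31 between samples 3 and 4, -0.19 between samples 1 and 3 and 0.07 between samples 1 and 4. Both dyes are given in the labels, and ratios are sample over pool throughout.

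**Figure D2:**
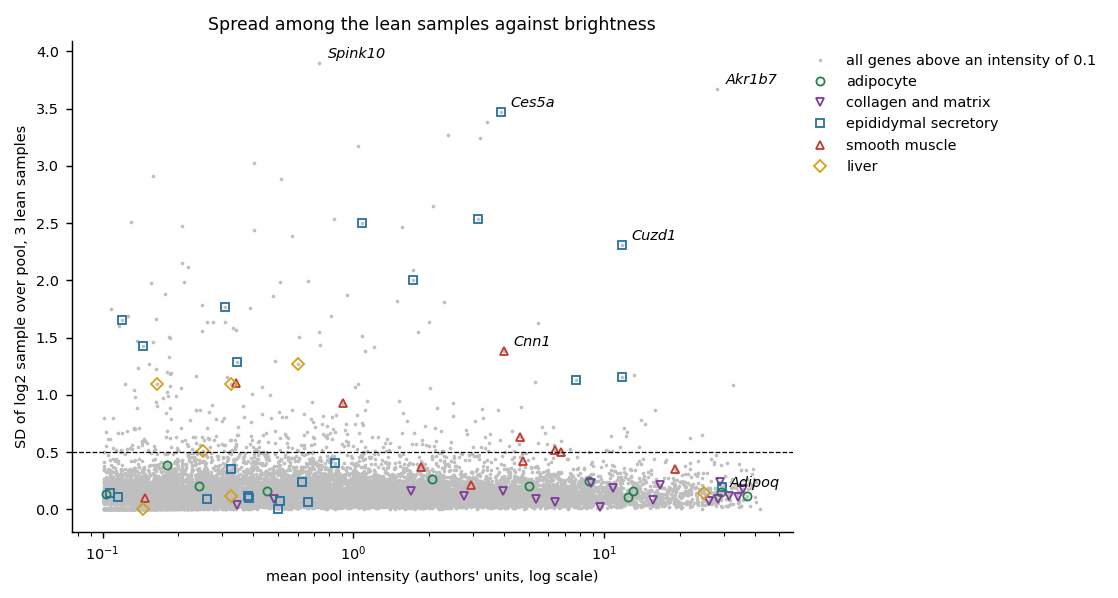
SD of log2 sample over pool across the 3 lean samples (y axis) against mean pool intensity (x axis, authors' units, log scale) for 16269 genes, with 5 gene lists marked and a dashed line at 0.5. Adipocyte and matrix genes lie below the line, while 11 epididymal secretory genes and 5 smooth muscle genes lie above it, and Akr1b7 is the brightest of the genes with an SD above 3.

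Of the 50 most variable genes 37 were highest in lean sample 3, where 31.2% of all genes above the filter were highest. Another 8 were highest in sample 1 (34.3% of all genes) and 5 in sample 4 (27.6%). In the remaining 6.79% of genes above the filter the highest ratio was tied, and tied genes count for no sample here or below. In all 37 both other samples lay below the pool, at log2 ratios of -1.16 or less in sample 1 and -1.38 or less in sample 4. If the pool is made of these samples, so high a ratio in sample 3 holds the others below the pool by construction. The other 13 were all lowest in sample 3, where 32.2% of all genes above the filter were lowest. The list rested on sample 3. Without its array, 8 of the 50 genes were among the 50 of largest SD, against 44 without the array of sample 4 and 43 without that of sample 1, and 354 genes had an SD above 0.5.

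Secreted proteins of the male tract were among the genes highest in lean sample 3. Spink10, of the Kazal-type protease inhibitors, read 0.02 in lean sample 1, 2.50 in sample 3 and 0.03 in sample 4, with a pool mean of 0.73 and an SD of the log2 ratio of 3.90. Ces5a, a carboxylesterase secreted by the epididymis, read 0.16, 12.55 and 0.20 (SD 3.47). Defb28, a beta-defensin, read 0.18, 10.76 and 0.20 (SD 3.38). Sample 3 was far above the other samples in each, and those lay close together. Adam7, an epididymal membrane protein that is passed to sperm, read 0.18, 3.23 and 0.13. Cuzd1, a CUB and zona pellucida domain protein, was the brightest of the 37 and read 3.01, 32.0 and 1.62. Npy, which encodes neuropeptide Y, read 0.37, 4.89 and 0.32. In all 3 of these genes sample 3 alone lay above the pool.

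Families of antimicrobial and protease inhibitor proteins had several members among them. Counted by symbol after the values were seen, 4 of the 50 were beta-defensins (Defb) and 4 were WAP domain proteins (Wfdc). Of the measured families, 8 of 19 Defb genes and 4 of 11 Wfdc genes above the filter had an SD above 0.5, beside 2.23% of all genes. The families were picked from the ranking by this SD, so the counts describe them and test nothing. Some members read above 0.1 in sample 3 alone, such as Defb37 at 0.03, 1.32 and 0.04 in lean samples 1, 3 and 4. If the pool holds these samples, such genes passed the filter through sample 3. Wfdc16 read 0.12, 8.36 and 0.17 in lean samples 1, 3 and 4, Wfdc10 read 0.45, 9.08 and 0.39, and Wfdc9 read 0.09, 1.75 and 0.11. The Kunitz-type inhibitor gene Spint3 read 0.07, 3.58 and 0.08. In the RefSeq gene order, Spint3, Eppin, Wfdc16, Wfdc9 and Wfdc10 lie in 1 run on chromosome 2 with at most 10 gene positions between neighbours, and all 5 were highest in sample 3. Tnnc2, the calcium sensor of fast skeletal muscle, lies in the same run and went the other way, at 0.61, 0.08 and 0.34. Among the genes with an SD above 0.5 the run also holds the protease inhibitor gene Spint4, which was highest in sample 4. Others of the 37 were Crisp4, a cysteine-rich secretory protein of the epididymis, Ltf, which encodes lactoferrin, Bsph2, a sperm-binding protein, and Prom2, a membrane protein of epithelial protrusions. The ratios of all 37 in sample 3 stood between 1.13 and 1.69 on the log2 scale.

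The genes highest in lean sample 1 were lowest in sample 3. Akr1b7, an aldo-keto reductase first known as a protein of the mouse vas deferens, read 50.1 in sample 1, 0.54 in sample 3 and 28.4 in sample 4, with pool readings of 25.2 to 30.4. Its log2 ratios were 0.97, -5.81 and 0.00 (SD 3.67). It was the brightest of the 50 genes in the pool. Pcp4, a calmodulin regulator, read 3.02, 0.12 and 1.58. Ptgs2, the inducible cyclooxygenase of prostaglandin synthesis, read 0.66, 0.03 and 0.44. Hoxa11, a homeobox gene of the posterior body axis, read 0.64, 0.07 and 0.27. In these genes sample 1 was above sample 4, and sample 3 stood far below both.

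The 5 genes highest in lean sample 4 included liver proteins. Fabp1, the liver fatty acid binding protein, read 0.05, 0.03 and 0.50 in lean samples 1, 3 and 4 (SD 2.15). Mup16, a major urinary protein, read 0.08, 0.06 and 0.60 (SD 1.78). Mup genes are nearly identical in sequence, and a reporter may read several of them. Without the array of sample 4 the SDs fell to 0.568 for Fabp1 and 0.174 for Mup16. The unannotated transcript 6030422H21Rik was the brightest of the 5, at 3.68, 1.17 and 10.24.

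**Figure D3:**
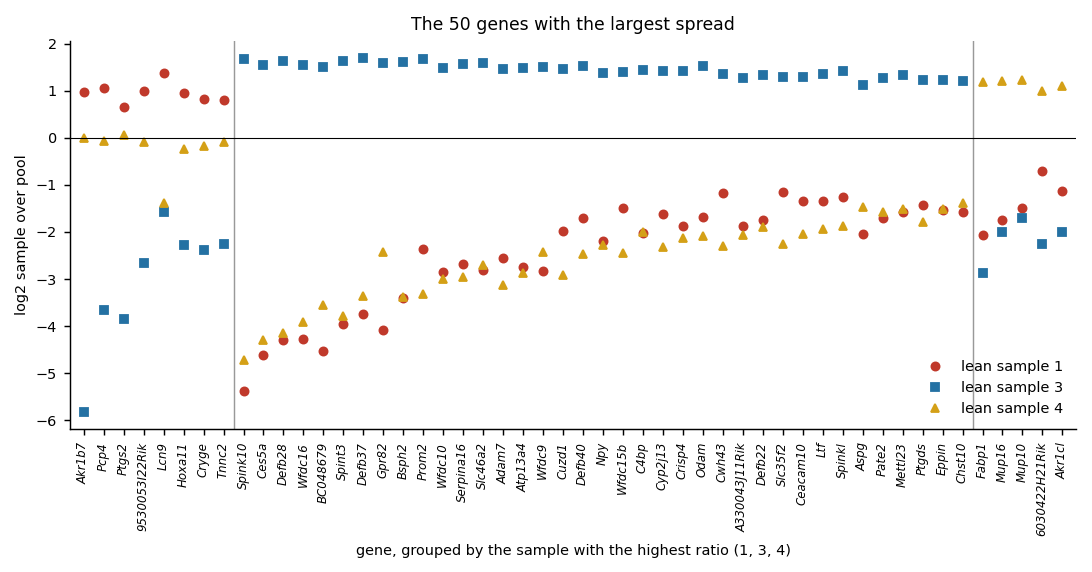
Log2 sample over pool (y axis) of the 50 genes with the largest SD, in 3 blocks by the lean sample with the highest ratio (x axis, 8 genes in sample 1, 37 in sample 3 and 5 in sample 4, ordered by SD within a block). Squares of sample 3 stand between 1.13 and 1.69 in the middle block, with samples 1 and 4 at -1.16 or less there, and sample 3 is at -5.81 for Akr1b7.

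Promoter sequence is shown for 4 genes of these patterns, chosen because each holds at least 1 of 2 motifs, while the windows of Wfdc9 and Wfdc10 hold neither. They are RefSeq promoter windows of 300 bases on GRCm38.p6, from 250 bases before the start to 50 after it, read along the gene's strand. Ces5a was highest in sample 3 (chr8:93535791-93536090, minus strand), Akr1b7 was lowest there (chr6:34412112-34412411, plus strand), and Fabp1 (chr6:71199629-71199928, plus strand) and the albumin gene Alb (chr5:90460620-90460919, plus strand) were highest in sample 4. Capitals mark every match on either strand of the steroid receptor half-site AGAACA and of GTTAAT, part of the site of the liver factor HNF1. Ces5a and Fabp1 hold both motifs, Akr1b7 holds the reverse complement of the steroid motif alone, and Alb holds the liver motif alone.
Ces5a: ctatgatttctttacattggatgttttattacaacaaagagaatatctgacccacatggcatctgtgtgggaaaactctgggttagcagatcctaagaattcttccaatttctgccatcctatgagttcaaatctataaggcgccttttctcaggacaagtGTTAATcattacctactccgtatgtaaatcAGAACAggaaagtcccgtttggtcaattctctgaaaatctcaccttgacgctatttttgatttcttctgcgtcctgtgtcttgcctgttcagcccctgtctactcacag
Akr1b7: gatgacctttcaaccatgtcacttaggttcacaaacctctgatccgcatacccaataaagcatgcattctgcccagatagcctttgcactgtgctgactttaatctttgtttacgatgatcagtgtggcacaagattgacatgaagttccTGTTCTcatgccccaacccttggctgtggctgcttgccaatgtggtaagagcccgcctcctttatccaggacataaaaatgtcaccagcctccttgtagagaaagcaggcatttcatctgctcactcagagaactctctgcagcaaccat
Fabp1: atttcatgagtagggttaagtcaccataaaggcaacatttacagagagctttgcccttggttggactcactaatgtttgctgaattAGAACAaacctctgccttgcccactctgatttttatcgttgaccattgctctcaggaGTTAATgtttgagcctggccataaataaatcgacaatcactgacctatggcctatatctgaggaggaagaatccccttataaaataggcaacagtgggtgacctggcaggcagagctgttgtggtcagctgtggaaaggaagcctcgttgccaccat
Alb: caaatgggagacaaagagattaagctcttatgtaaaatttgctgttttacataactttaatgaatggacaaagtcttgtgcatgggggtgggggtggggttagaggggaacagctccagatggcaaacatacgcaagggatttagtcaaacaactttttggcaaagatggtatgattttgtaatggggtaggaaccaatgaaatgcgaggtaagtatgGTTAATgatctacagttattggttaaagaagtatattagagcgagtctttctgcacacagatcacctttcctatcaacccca
The steroid motif AGAACA was present in 10 of the 31 windows found for the 37 genes highest in sample 3 (32.3%), in 3 of 7 for the genes highest in sample 1, in 2 of 3 for those highest in sample 4 and in 3 of 6 for the liver list. It was in 14.2% of the windows of genes above the filter and in 19.02% of all 27025 windows. The liver motif GTTAAT was present in 2 of 6 windows of the liver list and in 2 of 31 of the genes highest in sample 3, beside 5.02% for genes above the filter and 7.20% of all windows. Neither motif was limited to 1 pattern. A match describes the letters only, and its part in the values was not tested.

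The epididymal secretory list, which holds several of the genes above, varied widely but did not share 1 order of the samples. Of 39 measured epididymal secretory genes 23 passed the filter, and 11 of these had an SD above 0.5, beside 2.23% of all genes. The summed intensity of the 23 was 63.0 in lean sample 1, 144 in sample 3 and 53.8 in sample 4. Wfdc15b, of the WAP domain family, read 0.64, 4.87 and 0.34, and Ceacam10, a member of the carcinoembryonic antigen family, read 0.13, 0.81 and 0.07. By highest sample the 23 genes divided into 9 in sample 1, 10 in sample 3 and 4 in sample 4. Over all genes these shares were 34.3%, 31.2% and 27.6%. Of the 23, 9 were lowest in sample 3 (32.2% of all genes), where their median log2 ratio was 0.00. Lcn9, an epididymal lipocalin, read 0.26, 0.04 and 0.05, highest in sample 1, and Spint4, a protease inhibitor, read 0.05, 0.06 and 0.32, highest in sample 4. Genes of the epididymis are known to be expressed in different stretches of the duct. Spink8, the brightest of the list with a pool mean of 41.1 over 5 channels, read 28.2 in sample 1 and 11.7 in sample 4 and had no value in sample 3. The median SD of the list, 0.400, was 0.173 without sample 1.

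Epithelial and ciliary genes were low in lean sample 4. Of 27 epithelial genes above the filter 24 were lowest there (24.1% of all genes) and 10 had an SD above 0.5 (2.23%). Their summed intensities were 48.6, 51.0 and 31.6 in samples 1, 3 and 4. Cdh1, the epithelial cadherin, read 1.66, 2.29 and 0.88. Cldn3, a tight junction protein, read 2.99, 5.32 and 1.77. Of 30 motile cilia genes 24 were highest in sample 1 (34.3% of all genes) and 25 lowest in sample 4 (24.1%). An SD above 0.5 was found for 7 of the 30 (2.23% of all genes). Foxj1, the regulator of the ciliated cell programme, read 7.02, 4.35 and 3.24. Fam183b, a ciliary gene, read 3.62, 2.49 and 1.5. The summed intensity of the ciliary list fell in the same order, at 45.3, 35.9 and 29.2. Tppp3, the brightest of that list, read 8.31, 9.69 and 9.49. The median SD of 0.421 of the epithelial list was 0.187 without sample 4, and that of 0.389 of the ciliary list was 0.263 without sample 1.

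Smooth muscle genes were low in lean sample 3. Of 11 genes above the filter 9 were lowest there, beside 32.2% of all genes, and 9 highest in sample 1, beside 34.3%. An SD above 0.5 was found for 5, beside 2.23% of all genes. Cnn1, which encodes calponin of the contractile apparatus, read 6.71, 1.03 and 4.17 in samples 1, 3 and 4. Myh11, the smooth muscle myosin heavy chain, read 1.34, 0.40 and 1.01. Actg2, the enteric smooth muscle actin, read 0.64, 0.14 and 0.34. Tagln, which encodes transgelin and was the brightest, read 23.2, 14.3 and 19.8. The list's summed intensity was 62.5, 39.3 and 53.5. Synpo2 went the other way, at 3.92, 8.23 and 6.8, and its other reporters did not share 1 order of the samples. The skeletal muscle list had a median pool intensity of 0.169, with Ckm, the muscle creatine kinase, at 0.105 and Mylpf, a fast myosin light chain, at 0.043. Its members Tnnc2 and Acta1 had SDs of 1.57 and 0.58.

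Blood and liver genes varied by sample. The haemoglobin gene Hbb-b2 read 46.8 in lean sample 1, 25.5 in sample 3 and 12.9 in sample 4. Hbb-b1 read 25.05, 10.97 and 5.41 in the same order. Alas2, the first enzyme of haem synthesis in red cell precursors, read 0.58, 0.36 and 0.28. All 4 erythroid genes above the filter were highest in sample 1 and lowest in sample 4, beside 34.3% and 24.1% of all genes. The list's median SD of 0.723 was 0.423 without sample 1. The 2 haemoglobin genes are close copies, and 1 reporter may read both. Of 7 liver genes above the filter 5 were highest in sample 4 (27.6% of all genes) and 4 had an SD above 0.5 (2.23%). Apoa1, an apolipoprotein, had equal ratios in all 3 samples. Ttr, which encodes transthyretin, read 0.37, 0.21 and 1.24, and Alb read 0.11, 0.06 and 0.33. Cyp2e1, a cytochrome P450 that fat also expresses, read 23.4, 23.2 and 27.3 and had an SD of 0.14. The liver list's median SD of 0.513 was 0.099 without sample 4. In bulk tissue, fewer cells of a type and less RNA per cell cannot be told apart. The part of these cell types in the values of other genes was not tested.

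**Figure D4:**
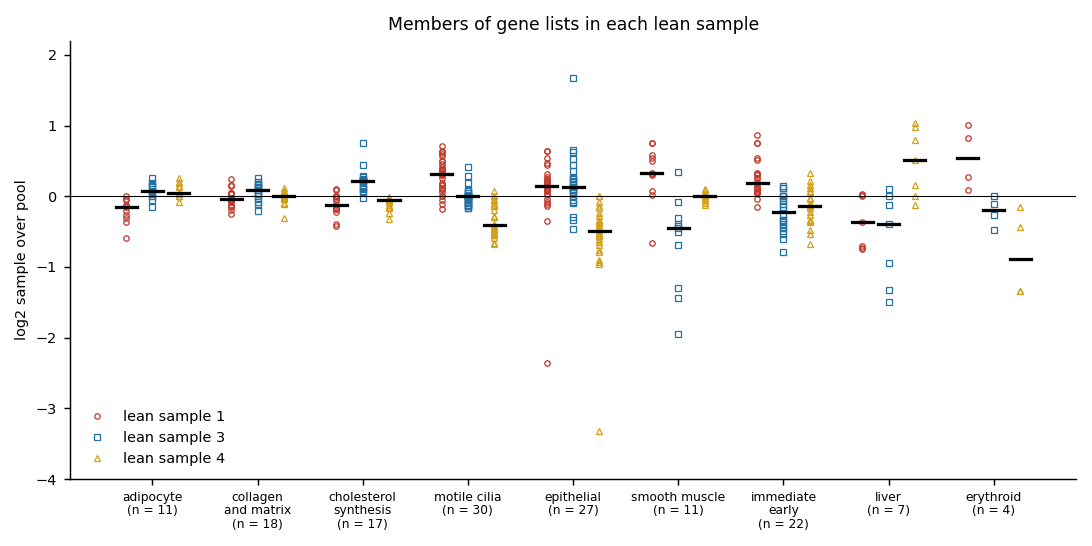
Log2 sample over pool (y axis) for the members of 9 gene lists (x axis, n is the genes above the filter), with a symbol per gene and lean sample and a bar at the median. The ciliary and epithelial medians are lowest in sample 4 (-0.41 and -0.49), the smooth muscle median in sample 3 (-0.46), and the liver median is highest in sample 4 (0.51).

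The adipocyte and matrix lists had no gene past an SD of 0.5, which at a background of 2.23% is no result about lists of their size. Of the adipocyte list 11 of 14 measured genes had all 3 ratios and passed the filter, and the median SD was 0.156, above the 0.111 of all genes. Of these 11, 10 were lowest in lean sample 1, beside 34.5% of all genes above the filter. Plin1, the perilipin that coats the lipid droplet, read 5.80, 8.19 and 10.16 in samples 1, 3 and 4. Pparg, the regulator of adipocyte formation, read 4.23, 5.26 and 5.72. Adrb3, the beta-3 adrenergic receptor, read 0.12, 0.19 and 0.21, the largest SD of the list at 0.39. G0s2, an inhibitor of the lipase encoded by Pnpla2, was the gene of the lipid droplet list with an SD above 0.5, at 13.7, 34.2 and 25.4. The median SD of 22 genes of fatty acid and triglyceride synthesis was 0.257, and 16 of them were lowest in sample 1, such as Acly, which makes acetyl-CoA from citrate, at 9.79, 13.8 and 16.4. The 18 matrix genes had a median SD of 0.111, the same as all genes. Fn1, which encodes fibronectin, read 14.2, 17.04 and 17.1.

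Of 5 further lists 4 had a median SD above the 0.111 of all genes. The median was 0.214 for 14 mesothelial genes, 0.176 for 14 adipose progenitor genes, 0.167 for 15 endothelial genes, 0.132 for 18 macrophage genes and 0.094 for 15 proliferation genes. None of these 5 lists had a gene past 0.5, beside 2.23% of all genes, a share too small to expect a gene in lists of this size. C1qa, a complement subunit made by macrophages, read 18.96, 22.4 and 21.9 in lean samples 1, 3 and 4, and Msln, which encodes mesothelin, read 4.38, 6.13 and 5.76. Small shifts went one way in several lists. Of 17 cholesterol synthesis genes 15 were highest in sample 3 and 1 had an SD above 0.5, and of 46 ribosomal protein genes 35 were lowest in sample 4 and 0 had one. Over all genes 31.2% were highest in sample 3 and 24.1% lowest in sample 4.

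Immediate early genes and genes of the glucocorticoid and fasting response differed by sample. Of 22 immediate early genes above the filter 16 were highest in lean sample 1 (34.3% of all genes). Such genes rise within minutes of a stimulus. Of the 22, 4 had an SD above 0.5 (2.23% of all genes). Egr1, a zinc finger factor, read 4.15, 1.43 and 1.86, and Ccn1, a matricellular protein, read 5.43, 2.17 and 2.15. Nr4a1, an orphan nuclear receptor, read 1.78, 0.73 and 0.74. Fos, a subunit of the AP-1 factor, read 0.47, 0.28 and 0.38, but its log2 ratio to the pool of the same array had an SD of 0.12. The list's median SD of 0.313 was 0.199 without sample 1. Of 11 genes of the glucocorticoid and fasting response 0 were highest in sample 3 (31.2% of all genes). An SD above 0.5 was found for 3 of the 11 (2.23% of all genes). Errfi1, an inhibitor of the epidermal growth factor receptor, read 10.5, 6.81 and 21.9, and Ddit4, an inhibitor of mTOR, read 8.12, 11.7 and 17.1. Sample 4 was the highest for both. Without the array of sample 3 the median SD of this list was 0.134, from 0.353. The heat shock list had a median SD of 0.152, and 0 of its 12 genes had an SD above 0.5. At 2.23% of all genes, that count is no result about a list of this size.

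The mean ratio of the lean samples to the pool was tested against 0. In limma 2 of 39431 reporters (0.00507%) departed from 0 at an adjusted p under 0.05, and 407 did so at an unadjusted p under 0.05. Both, 4930555F03Rik and A830011K09Rik, were named after their values were seen. They read 0.02 in each lean sample and 0.01 in the pool of the same arrays, a difference of a single rounding step, and had a mean log2 ratio of 1.00 and an adjusted p of 0.028. With a filter at 0.1 the count was 0, and 130 reporters had an unadjusted p under 0.05. For the 50 most variable genes the mean of the 3 linear ratios had a median of 1.03 and ran from 0.88 to 1.16. A pool of equal parts of these 3 samples would give a mean of 1 and no log2 ratio above 1.58, and the largest ratio was 1.69. Over the 16269 genes above the filter the 5th and 95th percentiles of that mean were 0.951 and 1.06. The labels do not say which samples the pool holds. If it holds these 3, the mean ratio is held near 1 by construction. The low count is then fixed in advance and is no result about lean fat.

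The authors' deposited table gives a p-value for each reporter and array that compares the sample with the pool. In the authors' deposited table, the share of genes above the filter with a p under 0.01 was 2.27% in lean sample 1, 1.99% in sample 3 and 1.49% in sample 4. In the authors' deposited table, 50, 50 and 43 of the 50 most variable genes passed it in samples 1, 3 and 4. These p-values come from the same ratios as the ranking. A second reporter above the filter was present for 33 genes with an SD above 0.5, and in 16 of them all other reporters had the same highest sample. All other reporters gave the same order of samples for 12 of the 33, and another reporter had an SD above 0.5 for 13, so most did not repeat the spread. Some of the other reporters were far dimmer, such as 0.142 beside 12.3 for H2-Q6 and 0.122 beside 10.2 for Nampt. There the rounding step weighs more, which limits this comparison. For Mup10, another major urinary protein gene, and for Hoxa11 the second reporter gave the same order of samples, with SDs of 1.86 and 0.793. For Defb37, a beta-defensin, and Pate2, a prostate and testis expressed gene, it did not, with SDs of 0.126 and 0.

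At the limits of the rules the values changed little. Jph2, E2f3 and Fpr-rs3 had pool means of 0.102 and passed the intensity filter, and Dio2, Pate4 and Cmtm2a had 0.10 and did not. Among the most variable genes Eppin, Tnnc2 and Chst10 were the last included, at SDs of 1.58, 1.57 and 1.56, and Acbd7, Hpdl and Akr1c19 followed at 1.55, 1.55 and 1.51.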

How the data were processed

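RNA of eWAT was extracted with Trizol and amplified in 2 rounds from 100 ng before labelling, per the labels' protocols. The submitters' processing notes name Agilent Feature Extraction 8.5.1.1. Linear intensities of both channels were deposited after a normalization that the sources used here do not describe, and 97.5% of them come in steps of 0.01. The authors also deposited a p-value per reporter and array, and log10 ratios in the series matrix. The deposited log10 ratios of replicates 1, 2 and 3 equal those of table samples 4, 3 and 1 within 0.02 on the log2 scale at 100% of reporters. Column names gave groups only.

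Symbols came from the table, 3197 of them updated through RefSeq, and 9345 reporters had none. Members, gene lists and tests were chosen with earlier results of these data known. The 36 gene lists are described by counts and medians. Genes named were the 30 brightest, the 40 with the largest SD, 3 on each side of the intensity filter, up to 5 per list, Lep, Adipoq, Xist and the Y-linked genes, and any other gene was chosen after its values were seen. The mean log2 ratio was tested against 0 with limma 3.58.1 in R 4.3.3, with Benjamini-Hochberg adjustment, and the code was tested on simulated data. Python 3.11.15 with pandas 2.3.3 did the rest. Alternatives were other filters, normalizations, reporters and channels, and leaving out each array or pool channel. The number of arrays limits the precision. The series' design text speaks of db/db islets, and the sample labels were followed.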

Additional observations from a re-analysis of the deposited data

How the results depend on the processing

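The number of genes with an SD of log2 sample over pool above 0.5 among the lean samples, 362, was 120 at a pool intensity above 1, with 17 of the 50 most variable genes left in that list, and 562 from the sample channel alone. Under the other settings of filter, normalization and reporter it ranged from 284 to 441. Leaving out each array gave 354 to 453 genes, and 8 to 44 of the 50 genes were kept, the 8 without lean sample 3. Across settings 28 to 41 of the top 50 were highest in sample 3. In a setting chosen after seeing the data, 323 genes stood above 0.5 without the epididymal, ciliary, epithelial, liver, smooth muscle and erythroid lists. Of the 50 brightest genes 20 were shared when ranked by the lean sample channels, 23 with the pool channels of the ob/+ arrays only, and 0 among genes with all 6 pool values, by construction. Leaving out 1 pool channel kept 35 to 49. Single genes' SDs moved in 44 of 481 values, list medians in 52 of 462 and mean pool intensities in 28 of 285. These totals include filters and dropped lists, which cannot change the SD of a gene. Leaving out 1 array moved 40 of 120 SDs and 28 of 108 list medians. Scaling each pool channel to one median moved 13 of 30 mean pool intensities, and using the lean sample channels moved 8 of 12. The limma count of 2 was 0 with filters at 0.1 and 0.2 (130 and 16 unadjusted), with all 6 arrays (536), after quantile normalization (393) and without each array (0 to 0, with 1833 to 2443 unadjusted), and 6 with a trended prior (328). No paired analysis was possible because a single group was analysed. Intensities near 0.1 move by 0.144 on the log2 scale with 1 rounding step, which limits dim genes, and missing values limit the brightest.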

Other observations

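Some transcripts of male germ cells were among the genes with an SD above 0.5. They were picked from these genes after their values were seen, so that they differed between the lean samples follows from the choice. The share of all germ cell genes with such an SD was not counted. Tnp1 and Tnp2, the transition proteins that replace histones in maturing sperm, read 0.19, 0.53 and 0.79 and 0.15, 0.39 and 0.38 in lean samples 1, 3 and 4. Prm1 and Prm2, the protamines that follow them, read 0.20, 0.35 and 0.37 and 0.56, 0.96 and 0.41. Smcp, a protein of the sperm mitochondrial capsule, read 0.42, 2.00 and 0.27. The genes did not share 1 order of the samples. By ratio, Tnp1 and Prm1 were highest in sample 4, and Tnp2, Prm2 and Smcp in sample 3.

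Genes with several reporters often disagreed in brightness. Of 202 genes with several reporters and a brightest pool mean above 10, 129 (63.9%) differed over 16-fold between reporters. Phldb1 averaged 43.1 on 1 reporter and 0.065 on the other, and Marveld2, a tight junction protein, averaged 37.2 and 0.235. Ucn2, which encodes the peptide urocortin 2, stood among the 50 brightest with a pool mean of 43.6.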
